A study of Mus musculus with 12 samples.

Results

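The cardiac GATA factors Gata4, Gata5 and Gata6 and the FOG cofactors Zfpm1 and Zfpm2 were followed in the ventricle of mouse embryos at embryonic day 16.5. All probe sets that the platform annotation assigns to 1 of these 5 genes alone were taken, which gave 11 of the 34945 single-gene probe sets on the array (45101 probe sets in all). The 5 genes are among 18193 with a single-gene probe set. RNA came from 4 genotypes with 3 independent ventricles each: double-null embryos lacking both Hdac2 and Hopx, Hdac2-null embryos, Hopx-null embryos and wild-type embryos. The labels name the genotypes as knockouts and give no promoter, Cre line, strain or sex, and the embryos share no other stated allele or treatment. Each ventricle was hybridised to its own single-colour array, and the signal is an intensity on a linear scale.

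GATA factors are zinc-finger proteins that bind DNA at a GATA core. In the heart Gata4 and Gata6 act in muscle growth and chamber formation, and Gata5 is known from the endocardium, the inner lining of the heart. FOG proteins do not act as classical DNA-binding activators but attach to a zinc finger of the GATA factor. They bring corepressors to it, among them CtBP and the NuRD complex, which holds the histone deacetylases Hdac1 and Hdac2. Zfpm2, also called FOG2, is needed for heart and coronary vessel development, and Zfpm1, also called FOG1, is best known from red cell and platelet precursors. Hopx is a small homeodomain protein that does not bind DNA itself and is known to recruit histone deacetylase activity in the heart. The study asked how loss of Hopx and Hdac2 affects the embryonic heart, with Gata4 protein as a point where they could meet. The arrays measure transcripts and carry no information on protein level or acetylation.

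The DNA that these factors read is shown first, for the start regions of 3 genes that are textbook targets of cardiac GATA factors and whose signals are given further below. Of 24 listed targets of GATA4 and GATA6, 23 had a promoter window in the RefSeq table of build GRCm38.p6, running from 250 bases before to 50 bases after the transcription start. The windows were searched on both strands for GATAA or, in its place, GATAG, each preceded by an A or a T, and overlapping matches were each counted. These genes have 28 windows, of which 9 (32.1%) held at least 1 match, near the 29.8% of all 32851 windows of the table. A match is a string of letters and not a measured binding site. Capitals mark the matches in the 3 windows, each written 5′ to 3′ on the strand of the gene.
Nppb, chr4:147985650-147985949, plus strand: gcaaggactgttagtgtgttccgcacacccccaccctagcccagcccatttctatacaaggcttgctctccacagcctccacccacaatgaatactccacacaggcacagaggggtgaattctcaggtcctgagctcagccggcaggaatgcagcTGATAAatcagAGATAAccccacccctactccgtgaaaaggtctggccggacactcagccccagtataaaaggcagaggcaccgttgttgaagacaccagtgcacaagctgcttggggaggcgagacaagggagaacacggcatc
Nppa, chr4:148000472-148000771, plus strand: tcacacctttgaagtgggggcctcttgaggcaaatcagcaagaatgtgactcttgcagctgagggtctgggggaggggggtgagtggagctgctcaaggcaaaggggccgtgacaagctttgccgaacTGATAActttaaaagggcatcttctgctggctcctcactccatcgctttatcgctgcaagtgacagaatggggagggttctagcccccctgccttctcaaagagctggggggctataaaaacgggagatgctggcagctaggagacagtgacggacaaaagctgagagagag
Slc8a1, chr17:81738338-81738637, minus strand: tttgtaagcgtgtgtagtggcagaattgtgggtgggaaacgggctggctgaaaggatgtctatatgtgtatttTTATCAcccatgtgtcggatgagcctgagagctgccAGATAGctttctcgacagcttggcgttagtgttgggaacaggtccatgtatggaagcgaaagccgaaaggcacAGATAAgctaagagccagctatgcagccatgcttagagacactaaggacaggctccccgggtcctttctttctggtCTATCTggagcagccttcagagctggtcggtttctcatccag
In the Nppb window 2 matches lie close together, starting 95 and 84 bases before the start. The Nppa window has 1 match, 122 bases before the start. The window of Slc8a1, the cardiac sodium-calcium exchanger, has 4. The windows of Gata5 and Zfpm1 held none of these strings.

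The labelled tissue was checked by markers, which showed heart muscle on all arrays and some liver signal, highest in the Hdac2-null group. All 8 cardiomyocyte markers, such as Tnnt2 and Myl2, were above the floor of 82.9 units that was applied to low signals, and their summed signal was 237660 to 243290 in double-null, 234456 to 241345 in Hdac2-null, 237458 to 244094 in Hopx-null and 238042 to 242899 in wild-type ventricles. All 5 lung epithelium markers were below the floor on every array. For 5 liver markers, of which Apoa1 and Apoa2 were below the floor on all arrays, signals were summed. The sum was 54.2 to 84.8 in double-null, 78 to 617 in Hdac2-null, 53 to 142 in Hopx-null and 49 to 66.9 in wild-type ventricles. The part of liver tissue in the GATA and FOG values was not tested. Hdac2 lay between 4.04 and 4.32 units on the 6 arrays labelled as lacking it and between 4442 and 5683 on the other 6, at least 58.3-fold lower in double-null and in Hdac2-null than in wild-type ventricles. Hopx was at 1656 to 2066 units where its loss was labelled and at 8577 to 12240 elsewhere. The female transcript Xist reached 4988 to 6130 units in replicate 1 of all 4 groups and in wild type 2, and did not exceed 22.2 units in the remaining 7 ventricles, so the groups differ in sex. Wild type 1 and Hopx-null 1 stood apart from the rest, with median correlations to the other arrays of 0.992 and 0.993 (log2 signal after the floor), against 0.994 to 0.996 for the others.

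The 11 probe sets differed widely in brightness, and signals of different probe sets are not compared with each other because each binds its target with its own strength. In 4 of the 5 genes, all but Gata5, 1 probe set or more exceeded the floor on all 12 arrays, 5 probe sets in all. These were 1418863_at of Gata4, 1425464_at and 1425463_at of Gata6, 1449314_at of Zfpm2 and 1451046_at of Zfpm1. The dimmest Gata6 probe set, 1443081_at, passed the floor on 2 arrays only, both Hdac2-null. It entered the fit because of that group and is therefore described without weight. The other 5 probe sets were below the floor on every array and were not tested.

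**Figure D1:**
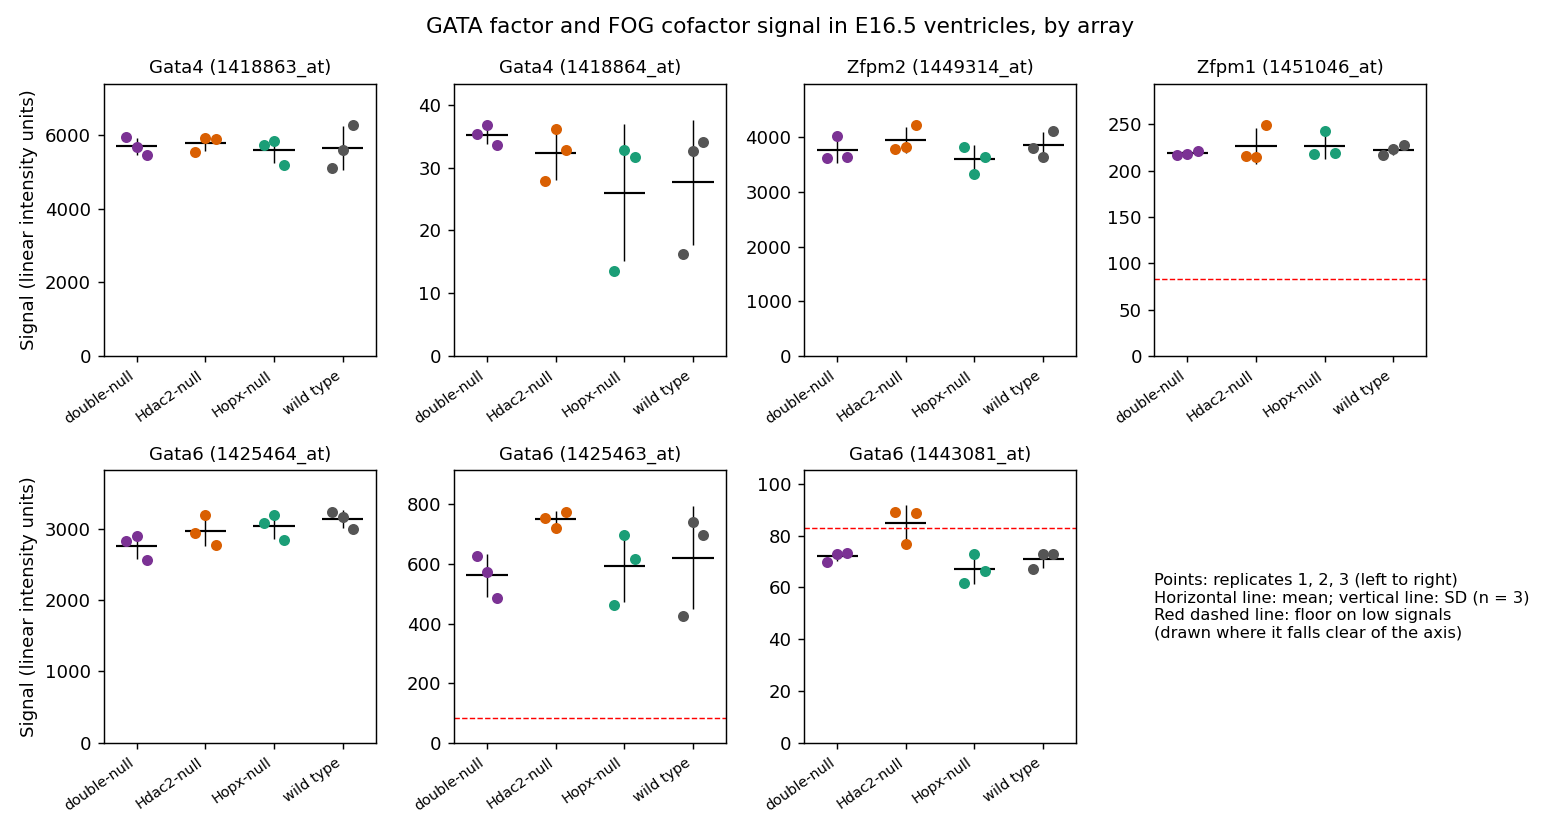
Signal of 7 GATA and FOG probe sets in linear intensity units (y axis) in double-null, Hdac2-null, Hopx-null and wild-type ventricles (x axis), with 1 point per array, the mean as a horizontal and the SD as a vertical line (n = 3), and the floor of 82.9 units as a red dashed line. Gata4 1418863_at, Zfpm2 and Zfpm1 overlap in every group, while Gata6 1425464_at is below all wild-type arrays on all 3 double-null arrays.

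Gata4, the factor at the centre of the cardiac network, had the same signal in all genotypes within the spread of the replicates. Its bright probe set measured 5933, 5672 and 5464 units in double-null, 5533, 5929 and 5887 in Hdac2-null, 5729, 5839 and 5187 in Hopx-null, and 5089, 5593 and 6264 in wild-type ventricles. The 3 wild-type arrays held both the lowest and the highest of the 12 values, so each null group lay within the wild-type range. The means were 5689.6 ± 235 in double-null, 5783 ± 217 in Hdac2-null, 5585 ± 349 in Hopx-null and 5648 ± 589.6 in wild-type ventricles (SD, n = 3 each). From lowest to highest the groups were Hopx-null, wild type, double-null and Hdac2-null, and no neighbours in this order differed beyond their spread.

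Against wild type, Gata4 measured log2 0.01 (SE 0.08, adjusted p = 0.976) in double-null, 0.04 (SE 0.08, adjusted p = 0.954) in Hdac2-null and -0.01 (SE 0.08, adjusted p = 1) in Hopx-null ventricles, all from limma with Benjamini-Hochberg adjustment over 15701 probe sets. For the 6 ventricles without Hdac2 (5736 units on average) against the 6 with it (5617) the fold was 1.02 with a 95% interval of 0.943 to 1.11. For the 6 without Hopx (5637) against the 6 with it (5716) the fold was 0.987, with an interval of 0.91 to 1.07. Exact two-sided permutation tests over 924 regroupings gave p = 0.524 for Hdac2 and p = 0.721 for Hopx (adjusted p = 0.983 for both over 30 such tests). Without wild type 1, the Gata4 value against wild type took the other sign, at log2 -0.06 in double-null and -0.03 in Hdac2-null ventricles, and with array weights it was -0.02 and -0.03.

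The other Gata4 probe set, 1418864_at, was dim and below the floor on all arrays, so it was not tested. It measured 35.3, 36.8 and 33.7 units in double-null, 27.8, 36.2 and 32.9 in Hdac2-null, 13.5, 32.9 and 31.7 in Hopx-null, and 16.2, 32.6 and 34.1 in wild-type ventricles. Hopx-null 1 and wild type 1 were the lowest arrays, and the remaining 10 lay between 27.8 and 36.8. Log2 ratios of the 3′ to the 5′ control probe set of Gapdh, a measure of RNA integrity, were 1.04 on Hopx-null 1 and 1.33 on wild type 1. The other arrays ran from 0.842 to 1.07, a range that holds Hopx-null 1 but not wild type 1. The same ratio for actin was 2.76 on both arrays, within the 2.63 to 2.80 of the others. The part of RNA integrity in these low values was not tested.

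Gata6, which shares many heart functions with Gata4, is represented by 3 probe sets that did not follow one pattern. The brightest, 1425464_at, measured 2832, 2901 and 2560.5 units in double-null, 2947, 3193 and 2771 in Hdac2-null, 3079, 3201 and 2846 in Hopx-null, and 3238, 3171 and 3000.2 in wild-type ventricles. Every double-null array lay below every wild-type array. The Hdac2-null and Hopx-null arrays overlapped with both. The means were 2764 ± 179.8 in double-null, 2970.3 ± 212 in Hdac2-null, 3042 ± 180.1 in Hopx-null and 3136 ± 123 in wild-type ventricles (SD, n = 3 each), which is also their order from low to high.

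For this probe set the difference of double-null from wild-type ventricles was log2 -0.18 (SE 0.07, 95% interval -0.35 to -0.02), with an unadjusted limma p of 0.0303 and an adjusted p of 0.645. It did not pass over all probe sets. An unadjusted p under 0.05 was reached by 7.62% of all probe sets in this comparison, and 15.1% had double-null and wild-type arrays that did not overlap. An exact two-sided permutation test gave p = 0.1 (adjusted p = 0.983 over 30 tests), the smallest that 3 against 3 arrays allow. The 6 ventricles without Hdac2 averaged 2867 units and the 6 with it 3089 (log2 -0.11, interval -0.22 to 0.01, adjusted p = 0.562 from limma). Hdac2-null against wild type measured log2 -0.08 (SE 0.07, adjusted p = 0.88) and Hopx-null against wild type -0.05 (SE 0.07, adjusted p = 1).

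Summed signals of 4 of the 11 marker lists were also lower on every double-null than on every wild-type array. Of all single probe sets, 15.1% did not overlap in this comparison, in either direction. Each sum is weighted to its brightest marker, which was Tek for the endothelial, Myl4 for the atrial and Csf1r for the leukocyte list. For 9 endothelial and endocardial markers, none of them below the floor on all arrays, the sum was 16113 to 16593 in double-null, 17679 to 18357 in Hdac2-null, 16429 to 17883 in Hopx-null and 16942 to 18923 in wild-type ventricles. For 6 atrial markers, of which Bmp10 was below the floor on all arrays, it was 34985 to 39309 in double-null, 35991 to 40867 in Hdac2-null, 32666 to 40174 in Hopx-null and 42372 to 43929 in wild-type ventricles. For 7 leukocyte markers, of which Ptprc, Cd68 and Aif1 were below the floor on all arrays, it was 4657 to 5395 in double-null, 4753 to 5171 in Hdac2-null, 5105 to 5436 in Hopx-null and 5582 to 6213 in wild-type ventricles. The atrial and leukocyte sums were below all wild-type arrays in each null group. Gata6 1425464_at overlapped with wild type in the Hdac2-null and Hopx-null groups. The erythroid list is the remaining one, at 143 to 203 in double-null and 234 to 357 in wild-type ventricles, and is given for all groups beside Zfpm1. The part of these cell types in the Gata6 value was not tested. In RNA of whole ventricles, fewer cells of a type and less RNA per cell cannot be told apart.

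The middle Gata6 probe set, 1425463_at, measured 627, 575 and 485 units in double-null, 755, 721 and 775 in Hdac2-null, 461, 699 and 616 in Hopx-null, and 424, 742 and 698 in wild-type ventricles. Hopx-null 1 and wild type 1 were again the lowest of the 12. All 3 double-null arrays lay below all 3 Hdac2-null arrays. The means were 562 ± 71.7 in double-null, 750.2 ± 27.4 in Hdac2-null, 592 ± 120.5 in Hopx-null and 621 ± 172 in wild-type ventricles (SD, n = 3 each). In its order, double-null, Hopx-null, wild type and Hdac2-null, no neighbours differed beyond the spread.

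Double-null against Hdac2-null was log2 -0.42 for 1425463_at (SE 0.22, 95% interval -0.90 to 0.05, adjusted p = 0.488 from limma). Arrays of these groups did not overlap for 26.1% of all probe sets. With array weights, which give less influence to arrays that fit the model poorly, the value was -0.39 (adjusted p = 0.0471), and this was the only call among the GATA and FOG probe sets under any setting tried. In that setting 1473 of 15701 probe sets (9.38%) were called in the same comparison, against 2 (0.0127%) without weights. The endothelial and endocardial sum and the erythroid sum were also lower on every double-null than on every Hdac2-null array, and their part in this value was not tested.

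The brighter Gata6 probe sets pointed in opposite directions in Hdac2-null against wild-type ventricles, log2 -0.08 for 1425464_at and 0.31 for 1425463_at (SE 0.22, adjusted p = 0.866). Without wild type 1 and Hopx-null 1 together the value of 1425463_at was 0.06 (adjusted p = 1), and double-null against wild type was -0.36 (adjusted p = 0.625) in place of -0.11 (adjusted p = 0.907). In double-null against Hdac2-null ventricles the same step left log2 -0.42 (adjusted p = 0.23).

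The dim Gata6 probe set, 1443081_at, measured 70, 72.9 and 73.2 units in double-null, 89.2, 76.7 and 88.6 in Hdac2-null, 61.8, 72.9 and 66.5 in Hopx-null, and 67, 72.8 and 72.9 in wild-type ventricles. Before the floor every Hdac2-null array was above every wild-type array. The 10.1% of all probe sets without overlap were counted after the floor, and this probe set is not among them. With the floor, the fit sees only the Hdac2-null arrays that exceed it. After the floor Hdac2-null against wild type was log2 0.07 (SE 0.06, adjusted p = 0.874), and the largest value under any setting was 0.26.

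**Figure D2:**
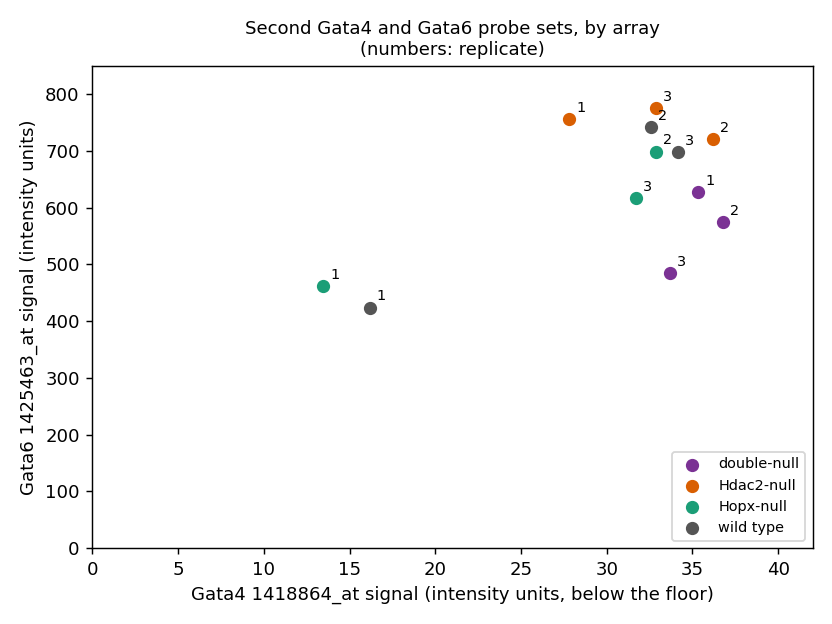
Signal of Gata6 1425463_at (y axis) against that of Gata4 1418864_at (x axis), both in linear intensity units, with 1 point per array coloured by genotype and numbered by replicate. Hopx-null 1 and wild type 1 sit at 13.5 and 16.2 units of the Gata4 probe set, apart from the other 10 arrays at 27.8 to 36.8.

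Gata5 was below the floor on every array in every genotype. Its probe set 1450126_at lay between 4.64 and 5.01 units and 1450125_at between 4.28 and 4.33 over the 12 arrays. No Gata5 transcript was detectable above the floor with these probe sets, which does not show that it was absent. No fold is given between groups that are all below the floor. The endocardial markers Nfatc1 and Npr3 were between 919 and 1274 and between 1665 and 2741 units.

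Zfpm2, the main FOG cofactor of the heart, measured 3610.1, 4027 and 3645 units in double-null, 3787, 3827 and 4218 in Hdac2-null, 3827, 3329 and 3630.4 in Hopx-null, and 3807, 3639 and 4114 in wild-type ventricles. The groups overlapped throughout, with the lowest array in Hopx-null and the highest in Hdac2-null ventricles. The means were 3761 ± 231 in double-null, 3944 ± 238 in Hdac2-null, 3596 ± 251 in Hopx-null and 3854 ± 241 in wild-type ventricles (SD, n = 3 each). Their order was Hopx-null, double-null, wild type and Hdac2-null, with no neighbours apart beyond their spread.

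Against wild type, Zfpm2 measured log2 -0.04 (SE 0.07, adjusted p = 0.916) in double-null, 0.03 (SE 0.07, adjusted p = 0.963) in Hdac2-null and -0.10 (SE 0.07, adjusted p = 1) in Hopx-null ventricles. The 6 ventricles without Hopx averaged 3678 units and the 6 with it 3899, a fold of 0.943 with a 95% interval of 0.87 to 1.02 (limma adjusted p = 0.647, and exact two-sided permutation p = 0.134, adjusted p = 0.983). The 6 without Hdac2 averaged 3852 and the 6 with it 3725, a fold of 1.03 with an interval of 0.955 to 1.12. The other Zfpm2 probe set, 1419012_at, lay between 4.59 and 6.52 units and was not tested.

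Zfpm1 measured 217, 218 and 221 units in double-null, 216, 214 and 249 in Hdac2-null, 218, 243 and 219 in Hopx-null, and 217, 223 and 228 in wild-type ventricles. Hdac2-null 3 and Hopx-null 2 were the highest, and the remaining 10 arrays lay between 214 and 228. The means were 219 ± 2.36 in double-null, 226 ± 19.7 in Hdac2-null, 227 ± 14.4 in Hopx-null and 223 ± 5.66 in wild-type ventricles (SD, n = 3 each). Against wild type it measured log2 -0.03 in double-null, 0.02 in Hdac2-null and 0.02 in Hopx-null ventricles (SE 0.09 each, adjusted p of 0.956, 0.988 and 1). For the 6 arrays without Hdac2 against the 6 with it the fold was 0.99, with a 95% interval of 0.897 to 1.09. The other Zfpm1 probe set, 1423603_at, was between 4.09 and 4.12 units on all arrays.

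Transcripts of the blood lineages where Zfpm1 is best known were mostly below the floor, with exceptions. Gata1, its partner in red cells and platelets, lay between 4.37 and 4.45 units, and Gata3, a factor of T cells, between 4.47 and 4.52. Of 8 erythroid markers 5 had a single-gene probe set, and Klf1, Epor and Hba-a1 were below the floor on all arrays. Alas2, at 78.5 to 303 units over the 12 arrays, and Slc4a1, at 32.7 to 94, exceeded it on some. Probe sets of several genes were not used, so the Hba-a1 value does not show that globin transcripts were absent. The summed erythroid signal was 143 to 203 in double-null, 246 to 409 in Hdac2-null, 196 to 330 in Hopx-null and 234 to 357 in wild-type ventricles, while Zfpm1 was 217 to 221 units on the double-null arrays. Of 5 megakaryocyte and platelet markers on the array, Itga2b, Gp9, Gp1bb and Ppbp were below the floor on all arrays, and Pf4, platelet factor 4, was at 1377 ± 116 in double-null, 1185 ± 207 in Hdac2-null, 1651 ± 187 in Hopx-null and 1675 ± 410.4 in wild-type ventricles (SD, n = 3 each). Csf1r, a macrophage receptor, lay between 3591 and 4744 units over the 12 arrays. Gata2, known from blood stem cells and vessel lining, was above the floor, at 1070 ± 78.8 in double-null, 1183 ± 174 in Hdac2-null, 1037 ± 64.8 in Hopx-null and 1175 ± 67.5 in wild-type ventricles (SD, n = 3 each). Its difference from wild type was log2 -0.14 (SE 0.11, adjusted p = 0.759) in double-null, 0.00 (SE 0.11, adjusted p = 1) in Hdac2-null and -0.18 (SE 0.11, adjusted p = 1) in Hopx-null ventricles.

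**Figure D3:**
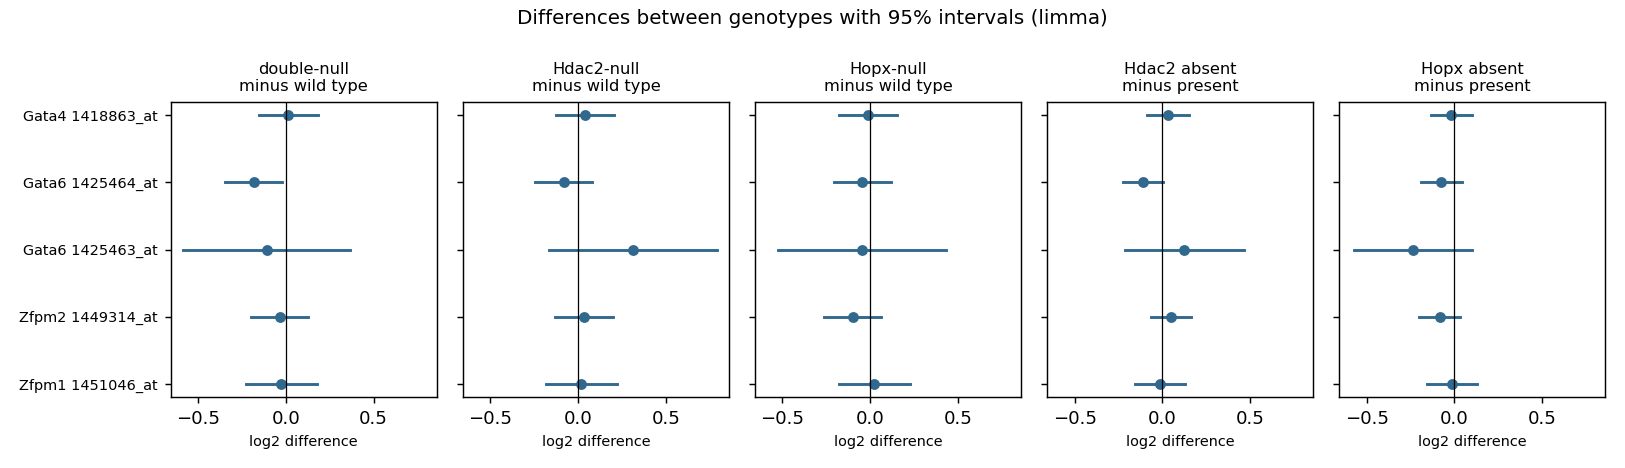
Log2 difference (x axis) with its 95% interval from limma for the 5 GATA and FOG probe sets above the floor on all arrays (y axis), in 5 comparisons. The interval of Gata6 1425464_at in double-null minus wild type, -0.35 to -0.02, is the only one of the 25 that leaves out 0, and its adjusted p is 0.645.

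Over the set, 0 of 6 tested probe sets were called by limma at an adjusted p under 0.05 in each of the 8 comparisons, and 1 reached an unadjusted p under 0.05, Gata6 1425464_at in double-null against wild type. Over all probe sets the called shares were 0.0382% in double-null, 0.0191% in Hdac2-null and 0.0127% in Hopx-null against wild type. Called shares were 0.0191% in double-null against Hopx-null and 0.0127% in double-null against Hdac2-null. For absence against presence of Hdac2 and of Hopx they were 0.0255% and 0.0127%. The interaction, which measures whether the losses of Hdac2 and Hopx add on the log2 scale, called 0%. At an unadjusted p under 0.05 the shares of all probe sets were 7.62%, 5.46% and 2.82% in double-null, Hdac2-null and Hopx-null against wild type, 7.88% and 11.5% in double-null against Hopx-null and against Hdac2-null, 9.11% and 8.97% for absence of Hdac2 and of Hopx, and 4.32% for the interaction. With so few calls among all probe sets, a count of 0 among 6 is near the background. Before the floor, arrays did not overlap for 1 of the 6 in double-null against wild type and 1 in Hdac2-null against wild type. In double-null against Hdac2-null there were 2. The case in Hdac2-null against wild type, and 1 of the 2 in double-null against Hdac2-null, is Gata6 1443081_at. It passed the filter through the Hdac2-null group, and after the floor its arrays were not apart in either comparison. The shares of all probe sets, 15.1%, 10.1% and 26.1% in these 3 comparisons, were counted after the floor. In Hopx-null against wild type, in double-null against Hopx-null and for absence of Hdac2 or Hopx the arrays overlapped for all 6. There 4.5%, 14%, 0.58% and 0.42% of all probe sets did not overlap.

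The median difference of the 6 probe sets from wild type was log2 -0.03 in double-null, 0.04 in Hdac2-null and -0.03 in Hopx-null ventricles, beside -0.01, -0.01 and 0.00 over all 15701; the 6 include the probe set that passed the filter through the Hdac2-null group. These comparisons share their wild-type arrays. In the interaction Gata4 measured log2 -0.01 (SE 0.11, adjusted p = 0.997), Gata6 1425464_at -0.06 (SE 0.10, adjusted p = 0.976), Gata6 1425463_at -0.38 (SE 0.31, adjusted p = 0.955), Zfpm2 0.03 (SE 0.10, adjusted p = 0.987) and Zfpm1 -0.07 (SE 0.13, adjusted p = 0.977). The widest of these intervals, for Gata6 1425463_at, ran from -1.05 to 0.30, and its value was -0.12 (adjusted p = 0.967) without wild type 1, the lowest array of this probe set.

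The genes whose signal followed each probe set most closely over the 12 arrays were found by Pearson correlation of log2 signal among all 15701 probe sets. The arrays differ in genotype, sex and RNA quality, and the top of so many correlations is high by selection. The correlations are therefore a description only. For Gata4 the closest genes were Fam216a (r = 0.938), Dcakd (0.925) and Pdlim7, a muscle LIM protein (0.919). For Gata6 1425464_at they were Pef1 (0.927), Faf1 (0.915) and Egln1, an oxygen-sensing hydroxylase (0.907). For Gata6 1425463_at they were the small GTPase gene Rab18, Txnip and Klf7, each between 0.952 and 0.96. The values of Txnip and Klf7 belong to a dimmer probe set of each gene. That of Txnip ran from 73.2 to 327 units, so its lowest signal was below the floor. A brighter Klf7 probe set was highest on wild type 1, at 2134 units, where Gata6 1425463_at was lowest. A brighter Txnip probe set measured 7009 units on wild type 1, within 6344 to 8444 over the 12 arrays. Rab18 measured 6867 units on wild type 1 and 7244 on Hopx-null 1, its 2 lowest arrays, against 7337 to 8340 on the others. For Zfpm2 they were the lactate transporter gene Slc16a1 (0.908), Gpm6a (0.883) and Ociad2 (0.863). For Zfpm1 they were Sdf2l1 (0.934), Klhl18 (0.901) and Gper1 (0.887), with rank correlations of only 0.67, 0.392 and 0.666. Sdf2l1 ran from 54.3 to 104 units and Gper1 from 48.7 to 87.9, so the floor flattened their lower arrays. No gene was shared between these lists.

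Partners that bind DNA with GATA factors or serve as their coactivators were measured through 1 probe set per gene, the one with the highest mean log2 signal. Of 24 partners 22 were tested, and 0 were called by limma in each of the 8 comparisons. At an unadjusted p under 0.05, 1 was found in double-null against wild type and 0 in the other comparisons. Hand1 and Isl1 were below the floor on all arrays. Median differences from wild type were log2 0.01 in double-null, -0.01 in Hdac2-null and -0.03 in Hopx-null ventricles.

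Of these partners Tbx5, a T-box factor that binds DNA together with Gata4, had the smallest p. It measured 544, 526 and 544 units in double-null, 682, 666 and 614 in Hdac2-null, 739.8, 619 and 522 in Hopx-null, and 1269, 694 and 619 in wild-type ventricles. Wild type 1 lay far above the other 11 arrays, which ranged from 522 to 739.8. Double-null against wild type was log2 -0.60 (SE 0.23, adjusted p = 0.645), and -0.28 (SE 0.14, adjusted p = 0.757) without wild type 1. Without that array Tbx5 measured log2 -0.0043 in Hdac2-null and -0.08 in Hopx-null against wild-type ventricles, in place of -0.32 and -0.40. Ezh2, a histone methyltransferase known to modify Gata4, was at 2687 ± 8.01 in double-null and 2423 ± 146 in wild-type ventricles (log2 0.15, SE 0.07, adjusted p = 0.651). Smarcd3, a heart subunit of chromatin remodelling complexes, measured log2 -0.19 (SE 0.13, adjusted p = 0.729), and Tbx20 0.15 (SE 0.08, adjusted p = 0.691) in the same comparison. The smallest p of Smarcd3 came in double-null against Hopx-null ventricles (log2 -0.28, SE 0.13, adjusted p = 0.635 from limma). That of Tbx20 came in double-null against Hdac2-null ventricles (log2 0.18, SE 0.08, adjusted p = 0.456).

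Corepressors that FOG proteins bind were represented by 17 genes, of which 15 were tested. The only one called was Hdac2 itself, lower in every comparison of its absence with its presence. Chd3 and Mbd3, members of NuRD, were below the floor on all arrays. Rbbp7, a histone-binding NuRD subunit, was at 18224 ± 517 in double-null and 16539 ± 337 in Hdac2-null ventricles (log2 0.14, SE 0.04, adjusted p = 0.329). Nr2f2, a nuclear receptor that binds Zfpm2, was at 5513 ± 215 in double-null and 4892 ± 465 in Hopx-null ventricles (log2 0.18, SE 0.07, adjusted p = 0.583). Gatad2a, a NuRD subunit, measured log2 0.13 (SE 0.07, adjusted p = 0.866) in Hdac2-null against wild-type ventricles. Hdac1, the closest relative of Hdac2, was named after its values were seen. It was at 4016 ± 197 in double-null, 3806 ± 33.1 in Hdac2-null, 3686 ± 281 in Hopx-null and 3624 ± 424 in wild-type ventricles (SD, n = 3 each), log2 0.15 (SE 0.08, adjusted p = 0.683) in double-null against wild type.

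Among 24 genes known as targets of GATA4 and GATA6 in the heart, 20 were tested and 0 were called by limma in each of the 8 comparisons. At an unadjusted p under 0.05 there was 1 in double-null against Hopx-null, 2 in absence against presence of Hdac2 and 0 in the others. Median differences from wild type were log2 0.01 in double-null, -0.02 in Hdac2-null and 0.01 in Hopx-null ventricles. Wnt2 and Gja5 were below the floor on all arrays, and Chrm2 and Adora1 had no single-gene probe set.

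The 3 genes whose start regions are printed above were chosen for those regions after their values were seen. Nppb, the natriuretic peptide whose window holds the paired matches, measured 7449, 7236 and 5035 units in double-null, 7556, 7549 and 6473 in Hdac2-null, 7834, 5195 and 5727 in Hopx-null, and 6532, 5583 and 5537 in wild-type ventricles. Double-null and Hopx-null arrays overlapped with wild type, and 2 of the 3 Hdac2-null arrays were above all wild-type arrays. Nppa, the other natriuretic peptide, was at 15437, 23037 and 25251 units in double-null, 20061, 20572 and 21454 in Hdac2-null, 26196, 24346 and 27482 in Hopx-null, and 28863, 26431 and 16674 in wild-type ventricles. Its wild-type arrays spanned nearly the whole range of the 12. Slc8a1 averaged 711 ± 139 in double-null, 667 ± 27.9 in Hdac2-null, 751 ± 68.3 in Hopx-null and 702 ± 37.5 in wild-type ventricles (SD, n = 3 each). Adjusted p-values of these 3 genes from limma were 0.836 or more against wild type in each null group.

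By the smallest p, the targets that came first were Tnni3, Plxna2, Sema3c and Actc1. Tnni3, the cardiac troponin I gene, was at 18896 ± 268 in double-null and 20925 ± 796 in Hopx-null ventricles (log2 -0.15, SE 0.06, adjusted p = 0.584). Plxna2, a semaphorin receptor gene of the outflow tract, measured log2 -0.13 (SE 0.06, adjusted p = 0.542) for absence against presence of Hdac2. Sema3c, a semaphorin of the same region, was at 1696 ± 147 in double-null and 1385 ± 255 in Hdac2-null ventricles (log2 0.31, SE 0.14, adjusted p = 0.453). Actc1, cardiac alpha-actin, had its smallest p in the interaction (log2 0.07, SE 0.03, adjusted p = 0.951 from limma). It was at 38329 ± 243 in double-null and 37883 ± 80.1 in wild-type ventricles (log2 0.02, SE 0.02, adjusted p = 0.868).

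**Figure D4:**
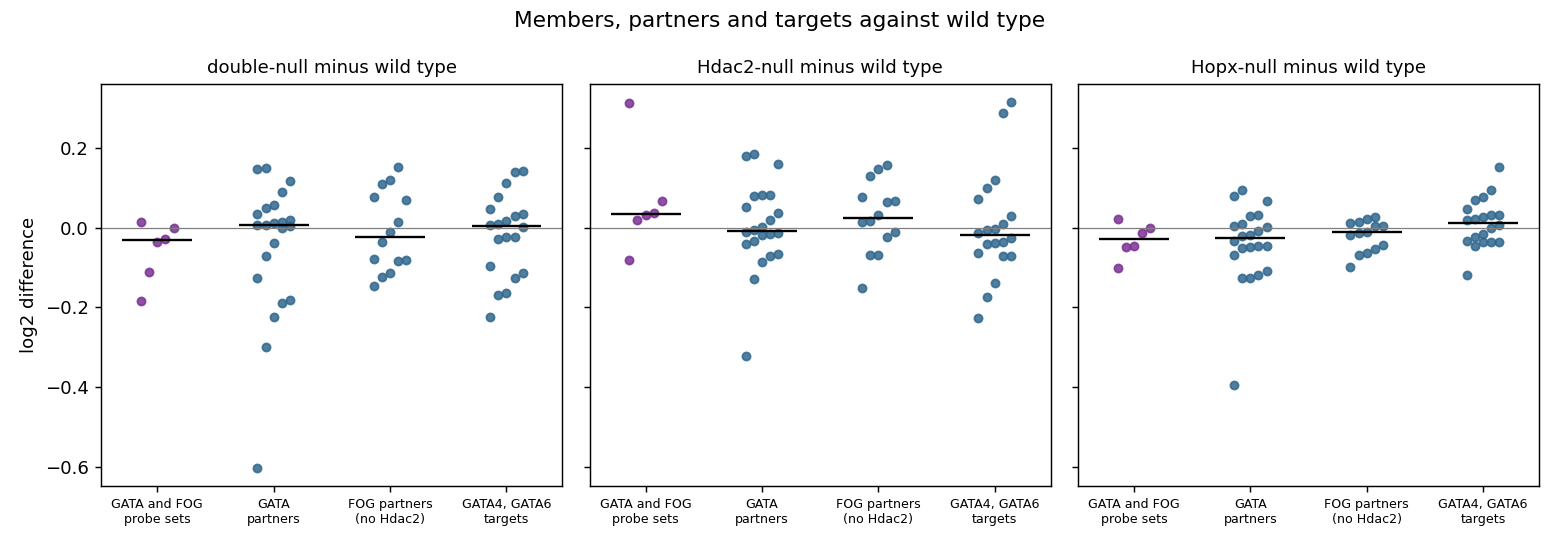
Log2 difference from wild type (y axis) of the 6 GATA and FOG probe sets, 22 GATA partners, 14 FOG partners without Hdac2 and 20 targets of GATA4 and GATA6 (x axis) in double-null, Hdac2-null and Hopx-null ventricles, with 1 point per probe set and the median as a line. Medians stay close to 0, and the lowest point in each panel is Tbx5, at -0.60, -0.32 and -0.40, values that were -0.28, -0.0043 and -0.08 without wild type 1.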

How the data were processed

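Ventricular RNA of 12 mouse embryos was measured on single-colour arrays, 3 per genotype, and each label's title gave the genotype and replicate. The deposited intensities, 1 per probe set and array, are on a linear scale and were already summarised and normalised by the authors; per the submitters' processing notes MAS5 was used, with no version. Many values lie close to a common minimum, which is not the usual shape of MAS5 output, and further steps are not given in the sources used here. No normalisation was added.

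The floor was 82.9 units, a share of 0.1 of the trimmed mean signal (2% trimmed, averaged over arrays), and lower signals were raised to it before log2 transformation, so folds of dim probe sets are understated. Of 45101 probe sets, 34945 had 1 gene in the platform annotation, 932 several and 9160 none, and 64 were controls. Gene symbols were updated through gene identifiers (34741 matched). Probe sets had to reach the 40th percentile of mean log2 signal (4.76 units) and exceed the floor on at least 1 array, which left 15701 probe sets of 9662 genes. Here all of these probe sets, and not 1 per gene, form the family of tests, since several members have more than 1.

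limma 3.58.1 in R 4.3.3 was fitted over all 12 arrays with 1 coefficient per genotype, 8 residual degrees of freedom and an intensity trend, and tested on simulated data. Benjamini-Hochberg adjustment ran over all probe sets, separately for the 8 comparisons. The number of arrays limits the precision. The members and lists were chosen with earlier results of these data known. Besides the members, the text names, per list, called genes and the 4 with the smallest p in any comparison, and for each member above the floor on all arrays the 3 most correlated genes. Alternatives were no floor, a floor of 16 units, quantile normalisation, other filters, array weights, no trend, 1 probe set per gene, a replicate block, log2 Xist signal as covariate, only the groups compared, and leaving out each array. Leaving out wild type 1 and Hopx-null 1 together, and the replicate block within Hopx-null and wild type alone, were chosen after seeing the data.

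Replicate numbers 1 to 3 recur in all groups. Deviations of same-numbered arrays from their group means correlated across probe sets by 0.489, 0.461 and 0.178 between Hopx-null and wild type. The labels do not say that equal numbers mark a pair or a batch. The 3 deviations of a group sum to 0, so the 3 correlations are not independent, and wild type 1 and Hopx-null 1 stood apart. Whether the numbers pair these groups cannot be told from these values. The main fit and the permutation tests did not pair arrays, and a replicate block was an alternative. In each of the other pairs of groups at least 1 number correlated by less than 0.1.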

Additional observations from a re-analysis of the deposited data

How the results depend on the processing

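The count of GATA and FOG probe sets called stayed at 0 in 189 of 190 recomputed counts over 25 alternative settings, and the exception was 1 called in double-null against Hdac2-null ventricles with array weights (Gata6 1425463_at). Leaving out single arrays gave 0 in every comparison. With the replicate block, which treats same-numbered arrays as paired, the count was 0 in every comparison and no call of a GATA or FOG probe set changed. Of 1112 recomputed log2 differences of these probe sets, 1085 moved by no more than 1 SE and 57 took the opposite sign, none of them called. Gata6 1425464_at in double-null against wild type ranged from -0.22 to -0.12, with adjusted p of 0.353 or more.

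The count of all probe sets called was less stable. In double-null against wild type it was 6, against 12 with array weights, 3 with 1 probe set per gene and 13 without wild type 3. In Hdac2-null against wild type it was 3, against 6 without the floor, 13 without wild type 3 and 5 without Hdac2-null 1. In Hopx-null against wild type it was 2, against 1 with 1 probe set per gene or only the groups compared, 0 with the replicate block in these groups alone and 4 without wild type 1 and Hopx-null 1. In double-null against Hdac2-null it was 2, against 1473 with array weights, 1 with 1 probe set per gene and 5 without Hdac2-null 1. In double-null against Hopx-null it was 3, against 5 without Hopx-null 1 and 9 without both arrays. For absence against presence of Hdac2 it was 4, against 9 without the floor or with array weights, 2 with 1 probe set per gene, 20 without wild type 3 and 12 without both arrays. For Hopx it was 2, against 1 with 1 probe set per gene. The interaction called 0, against 2 without wild type 3, 1 without Hdac2-null 1 and 1 without both arrays. With 1 probe set per gene fewer were tested; the cause was not tested for the others. Probe sets below the floor limit what can be said of Gata5.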

Other observations

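The GATA and FOG probe sets above the floor on all arrays varied little between replicates, with 1 exception. The within-group SD of log2 signal was 0.10 for Gata4 1418863_at, 0.09 for Gata6 1425464_at, 0.09 for Zfpm2 1449314_at and 0.08 for Zfpm1 1451046_at, beside a median of 0.15 over all 15701 probe sets. Between 17.3% and 26.8% of all probe sets had a smaller spread than these 4. Gata6 1425463_at, at 0.29, was the exception, with a smaller spread in 85% of probe sets.

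Epicardial transcripts, which include genes of a lineage where Zfpm2 and Gata4 are also known to act, were present in all genotypes. The summed signal of 7 epicardial markers was 8768 to 8994 in double-null, 8669 to 9158 in Hdac2-null, 8255 to 9771 in Hopx-null and 8370 to 9767 in wild-type ventricles, and all 7 markers were above the floor. For absence against presence of Hopx, 3 of the 7 were higher and 4 lower, and limma called 0. At an unadjusted limma p under 0.05 there were 4 of 7, beside 8.97% of all probe sets. These were Upk3b (log2 -0.42), Upk1b (-0.45), Tbx18 (0.18) and Tcf21 (0.16), with adjusted p of 0.42 to 0.541.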
